A study of Mus musculus with 3 samples.

Results

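The genes described here are 9 adhesion molecules of blood leukocytes, taken by symbol from a table of 16072 named genes: the integrin chains Itgam, Itgal, Itga4, Itgb2 and Itgb1, the selectin ligand Selplg, the hyaluronan receptor Cd44 and the immunoglobulin family members Icam1 and Pecam1. All 9 were in the table, and all 9 averaged 1 FPKM or more, the filter that left 9130 genes to compare. FPKM is the number of fragments of a transcript divided by its length and by the mapped fragments of the library, so levels of different genes can be set side by side. The RNA came from Ly6G+ myeloid cells of the bone marrow (BM) of C57BL/6 mice, which in the study were 6 to 10 weeks old. Every mouse, controls included, carried a subcutaneous graft of the melanoma line B16.F10, placed 1 week before an adeno-associated virus (AAV) vector was injected into muscle. The control vector was empty (AAV-Ctrl, labelled AAV-ctrl, 2 libraries), and the other made the mouse produce IL-27 from a ubiquitous promoter (AAV-IL-27, labelled AAV-IL27, 1 library). Cells, called BM Gr-1+ or BM Ly6G+ cells in the study, were collected 3 weeks after the vector, and each library is 1 mouse by the design text. Values given in threes below are in the order first control, second control and AAV-IL-27.

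Integrins are pairs of an alpha and a beta chain, and neither chain reaches the cell surface in quantity without the other. A neutrophil leaves the blood in steps. It first rolls on selectins through PSGL-1 and CD44, then stops when its beta 2 integrins LFA-1 (alpha L beta 2) and Mac-1 (alpha M beta 2) bind ICAM-1, and it crosses the vessel wall with the help of PECAM-1. In the BM, the alpha 4 beta 1 integrin VLA-4 holds leukocytes and their progenitors to VCAM-1 and fibronectin. Bulk RNA cannot tell fewer cells of one type from less RNA per cell, and this holds for every difference below.

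For the gene with the highest difference between the groups (Icam1), the gene with the lowest (Itgb1) and the most abundant alpha chain (Itgam), the 250 bases before the transcription start are printed to show what lies ahead of these genes. They are RefSeq sequences of GRCm38.p6, the assembly called mm10 in the submitters' processing notes. All run 5′ to 3′ on the plus strand, and the capitals mark matches to TTCNNNGAA, the letters bound by STAT factors, or to GAGGAA on either strand (TTCCTC on the other), the core bound by PU.1 and other Ets factors.
Icam1, chr9:21015690-21015939: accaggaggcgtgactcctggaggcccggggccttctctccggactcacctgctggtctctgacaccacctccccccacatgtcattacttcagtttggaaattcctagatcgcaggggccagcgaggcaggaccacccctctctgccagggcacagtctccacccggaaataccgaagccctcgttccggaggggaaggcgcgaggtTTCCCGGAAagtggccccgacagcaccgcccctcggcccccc
Itgb1, chr8:128685404-128685653: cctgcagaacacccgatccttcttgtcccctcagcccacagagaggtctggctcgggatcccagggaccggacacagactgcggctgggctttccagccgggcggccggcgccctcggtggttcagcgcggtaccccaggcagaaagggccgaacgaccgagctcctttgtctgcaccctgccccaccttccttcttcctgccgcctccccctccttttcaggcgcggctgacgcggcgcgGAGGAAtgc
Itgam, chr7:128062390-128062639: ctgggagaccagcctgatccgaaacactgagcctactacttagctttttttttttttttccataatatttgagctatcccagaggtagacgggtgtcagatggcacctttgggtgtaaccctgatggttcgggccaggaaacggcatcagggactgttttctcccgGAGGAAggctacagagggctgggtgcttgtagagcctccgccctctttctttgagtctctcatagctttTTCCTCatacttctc

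The Icam1 window held 1 match to TTCNNNGAA, from 42 to 34 bases before the start, a motif found in 7.0% of 32851 promoter windows of the same length. Neither the Itgb1 nor the Itgam window held one. GAGGAA, found in 23.3% of the windows, occurred once ahead of Itgb1 and at 2 places ahead of Itgam, from 84 to 79 and from 15 to 10 bases before the start. GGG followed after any 5 bases by CC, a spacing found in 45.8% of windows and shared by many NF-kappaB sites, matched once ahead of Icam1 and at 2 overlapping places ahead of Itgam. Promoters were matched for 5 of the 9 genes, and the windows of the other two matched genes, Itga4 and Cd44, held no TTCNNNGAA. These are matches of letters and not measured binding sites.

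The 3 libraries had similar depth, estimated at 19000000 and 19600000 fragments in AAV-Ctrl and 19260000 fragments in AAV-IL-27. Each carried the marks of neutrophils: Ly6g, the gene of the antigen named in the sample titles, was at 711.76 and 766.11 FPKM in AAV-Ctrl and 586.29 FPKM in AAV-IL-27. The study's text calls the cells Gr-1+ in its results and Ly6G+ where it names the deposited data. Its list of flow cytometry antibodies holds Gr-1 but not Ly6G alone, and it does not say how these cells were isolated. Of 10 neutrophil markers, 0 differed from both controls by 1 log2 unit or more. Markers of other cells moved more. In the AAV-IL-27 library 11 of 12 macrophage, 12 of 12 erythroid, 4 of 4 B cell and 3 of 7 megakaryocyte markers that reached the filter were at least 1 log2 unit below both AAV-Ctrl libraries, while 0 of 7 monocyte markers were. With 1 AAV-IL-27 library the spread within that group is unknown, the only replicate error is that of the 2 AAV-Ctrl libraries, and no p-value is given.

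Transcripts of the 9 adhesion molecules differed little between the groups. Differences are on the scale of log2(FPKM + 1), AAV-IL-27 minus the control mean, which makes changes of low genes look smaller than they are. The median difference of the 9 genes was 0.02, against -0.01 over all 9130 genes. The differences ran from -0.24 for Itgb1 to 0.57 for Icam1. Sign aside, the median size of the difference was 0.066 over the 9 genes and 0.138 over all 9130 genes. For 6 of the 9 genes the difference was smaller than 0.087, which is how far the AAV-Ctrl libraries themselves lay apart for the median gene. None of the 9 was at least 1 log2 unit lower or higher than both AAV-Ctrl libraries, where 2.32% of all genes were lower and 0.307% were higher. At a threshold of 0.5 the count was again 0 in both directions, against 7.01% of all genes lower and 1.57% higher. In any amount, 5 genes lay above both AAV-Ctrl libraries, 3 below both and 1 between them, against 38.9%, 41.9% and 19.2% of all genes. Rescaling the libraries by median ratio turned the split of all genes to 49.9% above and 33.4% below, and that of the 9 genes to 6 above and 2 below. The summed FPKM of the 9 genes was 0.486%, 0.484% and 0.509% of the library total.

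**Figure D1:**
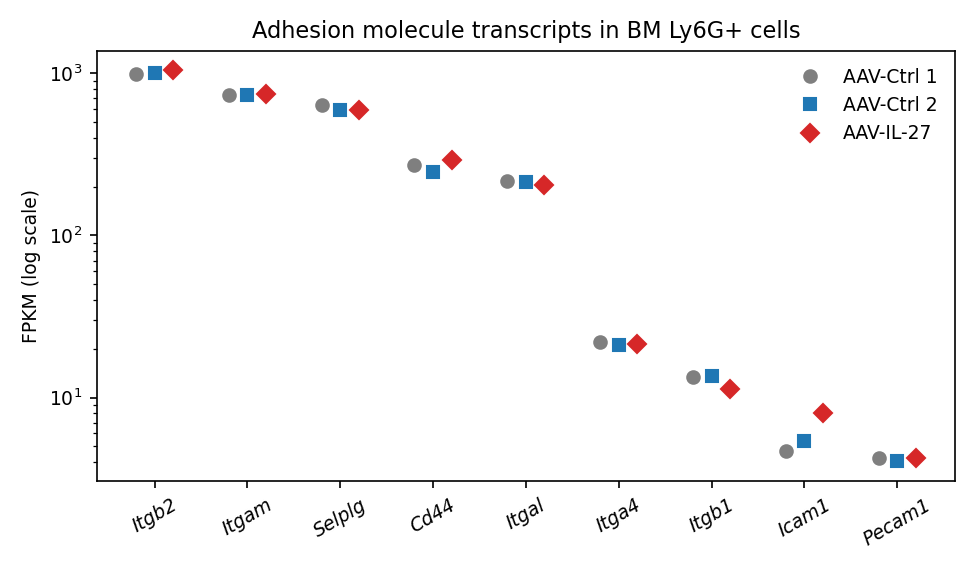
FPKM on a log axis of the 9 adhesion molecules in AAV-Ctrl 1 (grey circles), AAV-Ctrl 2 (blue squares) and AAV-IL-27 (red diamonds), 1 point per library, ordered by the AAV-Ctrl mean. The order from Itgb2 (990.43 to 1043.38 FPKM) to Pecam1 (4.04 to 4.25 FPKM) is the same in all 3 libraries, and the points of a gene lie farthest apart for Icam1.

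The levels spanned more than 2 orders of magnitude and kept 1 order. From high to low they ran Itgb2, Itgam, Selplg, Cd44, Itgal, Itga4, Itgb1, Icam1 and Pecam1 in each library. No pair of neighbours in this order overlapped across the 3 libraries. The closest were Icam1 and Pecam1, with a lowest Icam1 value of 4.71 FPKM and a highest Pecam1 value of 4.25 FPKM. The widest step lay between Itgal and Itga4, whose AAV-Ctrl means differed 9.98-fold, so the beta 2 integrin chains, PSGL-1 and CD44 formed a high group and the VLA-4 chains, ICAM-1 and PECAM-1 a low one. Itgb2 was the 56th and 54th most abundant transcript of the AAV-Ctrl libraries and the 51st of the AAV-IL-27 library.

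Itgb2 (NCBI Gene 16414, chromosome 10 from 77530329 to 77565708 in GRCm38.p6, as for all genes below) encodes CD18, the beta 2 chain that all leukocyte beta 2 integrins share. It was at 990.43 and 1003.28 FPKM in AAV-Ctrl, a mean of 996.86 ± 9.09 (SD, n = 2), and at 1043.38 FPKM in AAV-IL-27. The AAV-IL-27 value was the highest of the 3, at 104.7% of the AAV-Ctrl mean, a log2 difference of 0.07 against 0.02 between the AAV-Ctrl libraries. Itgam (NCBI Gene 16409, chromosome 7 from 128062640 to 128118491) encodes CD11b, the alpha M chain of the complement receptor Mac-1. Its values of 734.37 and 737.66 FPKM in AAV-Ctrl (736.02 ± 2.33, SD, n = 2) and 744.12 FPKM in AAV-IL-27 lay within 10 FPKM of each other. The AAV-IL-27 value was at 101.1% of the AAV-Ctrl mean, a log2 difference of 0.02.

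Itgal (NCBI Gene 16408, chromosome 7 from 127296139 to 127335137) encodes CD11a, the alpha L chain of LFA-1. It was at 215.10 and 213.05 FPKM in AAV-Ctrl (214.08 ± 1.45, SD, n = 2) and at 203.47 FPKM in AAV-IL-27. The AAV-IL-27 value was below both, at 95.05% of the AAV-Ctrl mean, a log2 difference of -0.07 against -0.01 between the AAV-Ctrl libraries. With equal totals it was -0.032 and with median ratios -0.014, while that of Itgb2 was 0.107 and 0.125 and that of Itgam 0.057 and 0.075. As a ratio of FPKM, Itgam to Itgb2 was 0.742, 0.735 and 0.713. For Itgal to Itgb2 the ratio was 0.217, 0.212 and 0.195. Relative to their beta chain, both alpha chains were thus slightly lower with IL-27 than in either control. Put as log2 ratios of FPKM + 1, these shifts were -0.05 and -0.14.

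The beta 2 chain has 2 further alpha partners, which were looked at together with Itgam and Itgal only after their values were seen. Itgax encodes CD11c, best known from dendritic cells, and was at 17.28 and 11.89 FPKM in AAV-Ctrl and 24.64 FPKM in AAV-IL-27. On the log2 scale it exceeded the nearer AAV-Ctrl library by 0.488, less than the AAV-Ctrl libraries differed from each other (-0.504 from first to second). Itgad encodes the alpha D chain, known from tissue macrophages, and was at 12.20 and 11.77 FPKM in AAV-Ctrl and 1.88 FPKM in AAV-IL-27. The 4 alpha chains summed to 978.95, 974.37 and 974.11 FPKM, which was 0.988, 0.971 and 0.934 of the Itgb2 level. Within this sum, Itgam made up 75.02%, 75.7% and 76.4%, Itgal 22.0%, 21.9% and 20.9%, Itgax 1.77%, 1.22% and 2.53%, and Itgad 1.25%, 1.21% and 0.193%. In FPKM as deposited, the sum of the alpha chains therefore differed by less than 5 FPKM between libraries. Itgad, the smallest part of this sum in each library, was at 15.7% of its AAV-Ctrl mean in AAV-IL-27. The sum was not rescaled. For Itgam, its largest part, rescaling raised the log2 difference from 0.016 to 0.057 (equal totals) or 0.075 (median ratio).

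**Figure D2:**
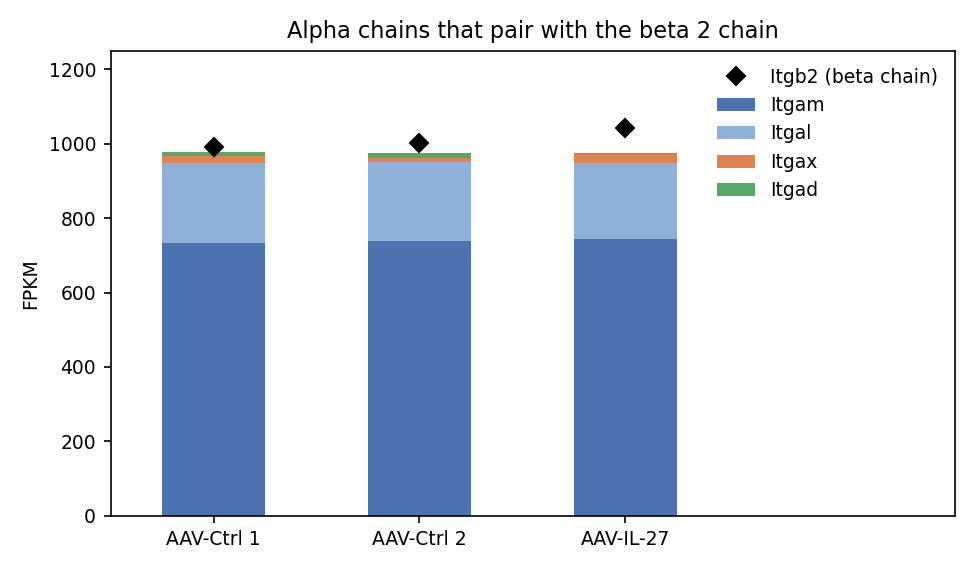
Stacked bars give the FPKM of Itgam, Itgal, Itgax and Itgad in each of the 3 libraries, and black diamonds the FPKM of Itgb2, on a linear axis from 0. The bars reach 978.95, 974.37 and 974.11 FPKM, and the Itgb2 diamond stands above each, farthest in AAV-IL-27 at 1043.38 FPKM.

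Itga4 (NCBI Gene 16401, chromosome 2 from 79255426 to 79333114) encodes CD49d, the alpha 4 chain of VLA-4. It was at 21.91 and 21.00 FPKM in AAV-Ctrl (21.46 ± 0.643, SD, n = 2) and at 21.41 FPKM in AAV-IL-27, the only 1 of the 9 genes whose AAV-IL-27 value lay between the AAV-Ctrl values. Its log2 difference of -0.003 turned positive under each of 3 rescalings of the libraries, so no direction is given for it. Itgb1 (NCBI Gene 16412, chromosome 8 from 128685654 to 128733579) encodes CD29, the beta 1 chain. It was at 13.33 and 13.65 FPKM in AAV-Ctrl (13.49 ± 0.226, SD, n = 2) and at 11.27 FPKM in AAV-IL-27, which was 83.5% of the AAV-Ctrl mean. The AAV-IL-27 value lay below both, with a log2 difference of -0.24 against 0.03 from control to control, and 18.8% of all genes were at least as low. These levels correspond to an estimated 948 and 1002 fragments in AAV-Ctrl, with 95% Poisson intervals from 889 to 1010 and from 941 to 1066, and to 813 fragments in AAV-IL-27, from 758 to 871. The intervals cover counting error only and do not overlap between the groups. The ratio of Itga4 to Itgb1 FPKM was 1.64, 1.54 and 1.90.

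The alpha 4 chain has a second partner, the beta 7 chain, with which it forms the gut homing integrin that binds MAdCAM-1. Itgb7 was at 17.75 and 21.56 FPKM in AAV-Ctrl and 40.61 FPKM in AAV-IL-27, at 206.6% of the AAV-Ctrl mean. The AAV-Ctrl libraries differed from each other by 0.27 on the log2 scale, and the AAV-IL-27 library was above the nearer one by 0.88, short of the threshold of 1. Estimated fragments were 881, 1104 and 2044, with an interval from 1956 to 2135 for the last. The ratio of Itgb7 to Itgb1 FPKM was 1.33, 1.58 and 3.603. On the log2(FPKM + 1) scale this ratio was higher by 1.26, against 0.23 from control to control. In each library Itgb7 was thus the more abundant of the 2 beta chains, and the AAV-IL-27 library held the highest ratio. On the ligand side, Vcam1 was at 87.83 and 86.73 FPKM in AAV-Ctrl and fell to 16.02 FPKM in AAV-IL-27, while Fn1, the gene of fibronectin, was at 1.71, 2.01 and 4.37 FPKM.

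**Figure D3:**
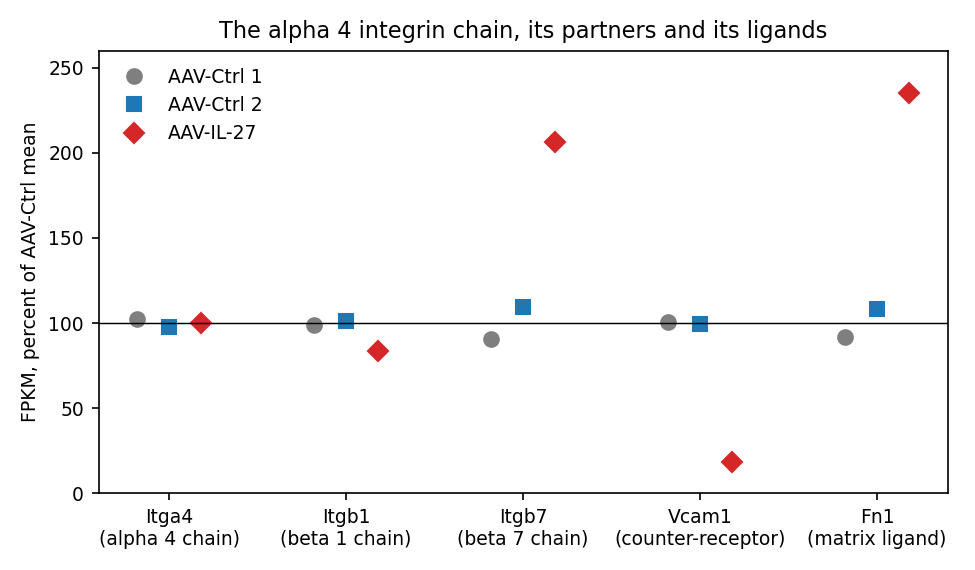
FPKM of the alpha 4 chain, its beta partners Itgb1 and Itgb7 and the ligands Vcam1 and Fn1, each as a percent of its AAV-Ctrl mean, with 1 point per library. The AAV-IL-27 diamond sits at 99.8% for Itga4, 83.5% for Itgb1, 206.6% for Itgb7, 18.4% for Vcam1 and 234.9% for Fn1.

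Selplg (NCBI Gene 20345, chromosome 5 from 113817798 to 113832528) encodes PSGL-1, the main ligand of P-selectin on neutrophils. It was at 633.22 and 597.28 FPKM in AAV-Ctrl (615.25 ± 25.4, SD, n = 2) and at 596.19 FPKM in AAV-IL-27. The AAV-IL-27 value lay below the nearer AAV-Ctrl library by 0.003 on the log2 scale, and the AAV-Ctrl libraries were 0.08 apart, so this gene showed no difference beyond their spread. Cd44 (NCBI Gene 12505, chromosome 2 from 102811141 to 102901669) encodes a hyaluronan receptor that also binds E-selectin, and the table gives 1 value over its 6 listed transcripts, so splice forms were not separated. It was at 270.31 and 244.48 FPKM in AAV-Ctrl (257.40 ± 18.3, SD, n = 2) and at 291.10 FPKM in AAV-IL-27, which was 113.1% of the AAV-Ctrl mean. The AAV-IL-27 value lay above both, with a log2 difference of 0.18, but by only 0.11 above the nearer AAV-Ctrl library, less than the 0.14 between the AAV-Ctrl libraries.

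Icam1 (NCBI Gene 15894, chromosome 9 from 21015940 to 21028814) encodes the counter-receptor of LFA-1 and Mac-1 and had the largest difference of the 9 genes. It was at 4.71 and 5.38 FPKM in AAV-Ctrl (5.05 ± 0.474, SD, n = 2) and at 7.99 FPKM in AAV-IL-27, which was 158.4% of the AAV-Ctrl mean. The AAV-IL-27 value was the highest, with a log2 difference of 0.57 against 0.16 between the AAV-Ctrl libraries. Of all genes, 155 (1.70%) had a difference at least as high. Estimated fragments were 221 and 260 in AAV-Ctrl, with 95% Poisson intervals from 193 to 252 and from 229 to 294, and 379 in AAV-IL-27, from 342 to 419, so the groups did not overlap in counting error. The gap to the nearer AAV-Ctrl library was 0.495, just under the looser threshold of 0.5. Against that threshold Icam1 was counted as higher with pseudocounts of 0.1 and 0.01, after rescaling to equal totals or by median ratio, and without AAV-Ctrl 2. The share of all genes counted as higher was then 2.20%, 2.31%, 1.84%, 1.98% and 2.44%.

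By likeness over the 3 libraries, measured as the Euclidean distance of log2(FPKM + 1) after centring each gene, the genes nearest to Icam1 were Oasl2 (0.00981), Gbp3 (0.0261) and H2-K2 (0.0268). Oasl2 was at 84.69 and 94.18 FPKM in AAV-Ctrl and 134.40 FPKM in AAV-IL-27. Gbp3 was at 1.01, 1.29 and 2.15 FPKM and H2-K2 at 21.68, 23.69 and 34.35 FPKM. The measure rests on 3 values a gene. Of 7 monocyte markers 5 lay above both AAV-Ctrl libraries, against 38.9% of all genes, while Csf1r and Cx3cr1 lay between them. Ly6c2, Mpeg1 and Ms4a6c exceeded the nearer AAV-Ctrl library by less than the AAV-Ctrl libraries differed from each other. Ccr2 (1.43, 1.61 and 2.64 FPKM) and F13a1 (2.05, 2.06 and 3.20 FPKM) exceeded it by more, at low levels. The median difference of the monocyte markers was 0.20. Their summed level was 1317.45 and 1356.79 FPKM in AAV-Ctrl and 1459.89 FPKM in AAV-IL-27, with none at 0. Most of it was Ly6c2, at 1023.13, 1086.23 and 1145.19 FPKM. Icam1, Cd44 and Itgax also lay above both, but Cd44 and Itgax by less than the AAV-Ctrl libraries differed. The part of monocytes in the values of Icam1, Cd44 and Itgax was not tested.

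Pecam1 (NCBI Gene 18613, chromosome 11 from 106654213 to 106715281) encodes PECAM-1 (CD31), found on leukocytes, platelets and the junctions of endothelium, and was the least abundant of the 9. It was at 4.21 and 4.04 FPKM in AAV-Ctrl (4.13 ± 0.120, SD, n = 2) and at 4.25 FPKM in AAV-IL-27. Its log2 difference was 0.03, against -0.05 from the first control to the second. The AAV-IL-27 value exceeded the nearer control by 0.01, less than the controls differed from each other. Over the same libraries, megakaryocyte markers, which include Itga2b and Itgb3, summed to 80.87 and 90.56 FPKM in AAV-Ctrl and 34.88 FPKM in AAV-IL-27. Of these sums, Itgb3 gave 24.17, 27.13 and 22.93 FPKM. Of the megakaryocyte markers tested, 7 of 7 were below both, and none was at 0. Endothelial markers summed to 4.52 and 4.77 FPKM in AAV-Ctrl and 1.69 FPKM in AAV-IL-27, with none at 0. Only 2 of the 8, Stab2 and Eng, reached the filter, and each was below both AAV-Ctrl libraries. Flt1, under the filter, went the other way, at 0.13, 0.12 and 0.54 FPKM. Pecam1 did not fall with the megakaryocyte markers or with the 2 endothelial markers tested. How much of its RNA came from such cells was not tested.

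**Figure D4:**
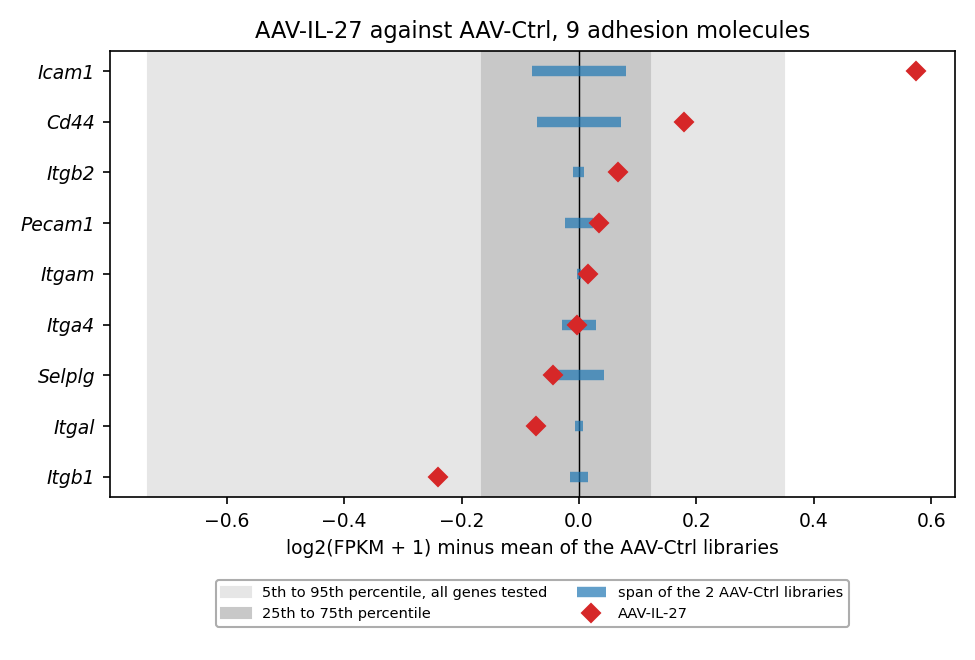
Red diamonds give the log2(FPKM + 1) difference of AAV-IL-27 from the AAV-Ctrl mean for each of the 9 genes, blue bars the span of the 2 AAV-Ctrl libraries around their mean, and grey bands the 5th to 95th and 25th to 75th percentiles of all 9130 genes. Icam1 at 0.57 lies outside the wider band, whose upper edge is 0.35, Cd44 and Itgb1 lie outside the narrower band (from -0.17 to 0.12), and the other 6 lie inside it.

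The other integrin subunits covered a wider range of differences. Of 21 subunits 19 were in the table and 11 reached a mean FPKM of 1. Their median difference was -0.06, from -2.17 to 1.02, and 3 fell by at least 1 log2 unit below both AAV-Ctrl libraries (Itgad, Itga2b and Itgb5) while 0 rose that far. Itgb5, which pairs with the alpha V chain, was at 8.09 and 8.34 FPKM in AAV-Ctrl and 3.50 FPKM in AAV-IL-27. Itgav, the gene of the alpha V chain, did not fall with it, at 5.42, 5.22 and 5.61 FPKM. Itga2b, the alpha IIb chain of platelets, was at 3.71 and 5.05 FPKM in AAV-Ctrl and 1.05 FPKM in AAV-IL-27. It is itself among the megakaryocyte markers counted and summed above, so that set is not independent of it. The part of megakaryocytes in the fall of Itga2b was not tested. Itgb3, the partner of Itga2b, also pairs with alpha V and is in the same marker set. It was at 24.17, 27.13 and 22.93 FPKM and did not reach the threshold. Itga9, whose alpha 9 chain binds VCAM-1 with beta 1, was at 1.49 and 1.69 FPKM in AAV-Ctrl and 0.51 FPKM in AAV-IL-27. Its log2 difference was -0.78. Macrophage markers moved with Itgad, Itgb5 and Vcam1: 12 of 12 were below both AAV-Ctrl libraries, with a median difference of -1.70 and a summed level of 747.85 and 736.30 FPKM in AAV-Ctrl and 220.04 FPKM in AAV-IL-27, and none was at 0. Their part in the falls was not tested.

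The intracellular machinery that activates integrins was measured at high levels and stayed close to the AAV-Ctrl values. Of 15 genes 14 were tested, with a median difference of 0.04 (-0.18 to 0.60), and 0 passed the threshold of 1 in either direction. Tln1, the gene of talin, was at 248.58 and 260.50 FPKM in AAV-Ctrl and 231.47 FPKM in AAV-IL-27, and Rap1b, a small GTPase upstream of talin, at 317.48, 302.67 and 304.26 FPKM. The largest differences were those of Cyth1, the gene of the integrin regulator cytohesin-1 (21.73, 21.72 and 33.43 FPKM, a log2 difference of 0.60), and Sharpin, an inhibitor of integrin activation (31.53, 33.15 and 38.24 FPKM, 0.24).

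Selectins and the genes that make their ligands were measured next. Of 14 genes 11 were tested, with a median difference of 0.04 (-0.45 to 0.24) and 0 past the threshold. Cd24a, a sialomucin, was at 971.35, 931.29 and 980.21 FPKM. Selp, the gene of the P-selectin of platelets and endothelium, was at 3.59, 3.27 and 2.23 FPKM, and Fut4, a fucosyltransferase that builds selectin ligands, at 7.76, 6.80 and 8.77 FPKM.

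Among counter-receptors and junction molecules 13 of 14 genes were in the table and 7 were tested, with a median difference of -0.11 (-2.37 to 0.91). Vcam1 passed the threshold downwards and 0 passed upwards. Icam4, a red cell ligand of beta 2 integrins, was at 1.94, 1.42 and 0.25 FPKM and fell short of the threshold against the nearer AAV-Ctrl library, at -0.95. Erythroid markers were below both AAV-Ctrl libraries in 12 of 12 cases, their summed level was 20439, 13789 and 2348 FPKM and none was at 0, and their part in the Icam4 value was not tested. Cd47, a partner of integrins, was at 56.66, 55.14 and 51.88 FPKM, and Alcam, an immunoglobulin family adhesion molecule, at 12.74, 11.76 and 18.32 FPKM.

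**Figure D5:**
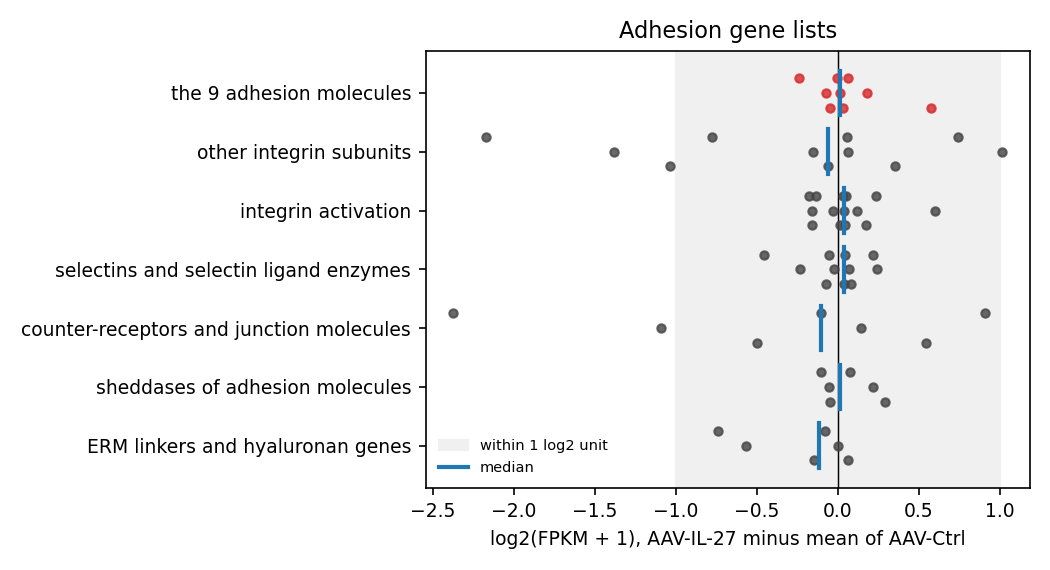
Each point is the log2(FPKM + 1) difference of AAV-IL-27 from the AAV-Ctrl mean for a gene averaging 1 FPKM or more, by list, with blue bars at the list medians and grey shading within 1 log2 unit of 0. The 9 adhesion molecules (red) lie between -0.24 and 0.57, while other integrin subunits reach from -2.17 to 1.02 and counter-receptors from -2.37 to 0.91; vertical position within a list carries no value.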

How the data were processed

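RNA-seq values of 3 libraries were used, 2 AAV-Ctrl and 1 AAV-IL-27, with groups taken from the sample titles. The design text counts 4 mice, and 1 further column of per-sample values had no counterpart among the listed samples and was left out. The authors enriched mRNA with oligo-dT, made strand-marked libraries, sequenced them on a DNBSEQ platform and deposited FPKM values with 2 decimals for 16073 rows keyed by NCBI Gene number, 1 of which has no symbol and was left out. The build in the submitters' processing notes is mm10. The aligner and the counting tool are not given in the sources used here. Fragment totals were worked out from the spacing of low FPKM values among 10766 single-transcript genes (lengths from GENCODE, 70 bases subtracted). The depth kept for each library was the one, out of a grid, that put the largest share of low values near whole fragments. At that depth 73.7%, 71.4% and 70.7% of 255, 213 and 215 low values fell within 0.15 of a whole fragment. Evenly spread values give 30% at a depth fixed beforehand, which is too low a baseline for a depth chosen this way. Counts of fragments therefore remain estimates and were not used in a count model.

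Differences were computed as log2(FPKM + 1), with a pseudocount of 1, where a gene averaged 1 FPKM or more over the 3 libraries. A gene was called lower or higher at 1 or 0.5 log2 units from each AAV-Ctrl library. With 1 AAV-IL-27 library no test was run. The 9 genes, the lists of adhesion genes and cell markers, and the rules were chosen with earlier results of these data known. All 9 genes were named. From each list the text names genes past the threshold of 1, the 2 most abundant others and the 2 with the largest differences, except 1 gene that is not reported here. From the marker lists it names only some, and of 2 T and NK cell markers tested 0 passed the threshold of 1. Itgax, Itgav and the sum of beta 2 partners were added after the values were seen. Coordinates and promoters are from RefSeq (GRCm38.p6). Software was pandas 2.3.3, matplotlib 3.10.9 and scipy 1.17.1 under Python 3.11.15 with numpy 2.4.6. Alternatives were other pseudocounts, filters and scalings and leaving out each AAV-Ctrl library, and the calls and depth estimate were tested on simulated data.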

Additional observations from a re-analysis of the deposited data

How the results depend on the processing

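The count of adhesion molecules higher by at least 0.5 was 0 and became 1 (Icam1) with a pseudocount of 0.1 or 0.01, after rescaling to equal totals or by median ratio, and without AAV-Ctrl 2, and it was 0 without AAV-Ctrl 1. Of all genes 1.57% were higher by that much, against 2.20%, 2.31%, 1.84%, 1.98% and 2.44% under those alternatives in turn, and 2.57% without AAV-Ctrl 1. The range over leaving out either AAV-Ctrl library was thus 0 to 1. The median difference of the 9 genes, 0.02, became 0.0568 with equal totals and 0.0747 with median ratios. Median-ratio rescaling also raised the median of the integrin activation list to 0.0956 and that of the selectin list to 0.0917, and the selectin median was -0.0377 with no filter on low values. Alternatives for these lists, for Itgb7 and for Itgad were added after the data were seen. Among all genes, 38.9% lay above and 41.9% below both AAV-Ctrl libraries, against 49.9% and 33.4% with median ratios and 46.5% and 35.7% with equal totals. Over the alternatives run, Icam1 ranged from 0.49 to 0.67, Itgb1 from -0.26 to -0.19, Itgb2 from 0.06 to 0.12, Itgal from -0.08 to -0.01, Itgb7 from 0.88 to 1.15 and Itgad from -2.67 to -2.13, while Itga4 changed sign in 4 of 9 and Selplg in 1 of 9. No paired analysis was possible because AAV-IL-27 has 1 library and the groups share a single replicate number. Leaving out an AAV-IL-27 library was not possible for the same reason. All differences rest on that library.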

Other observations

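Genes that cut adhesion molecules off the cell surface, and those that link CD44 and PSGL-1 to the cytoskeleton or make and break hyaluronan, were measured as well. Of 7 sheddase genes 6 were tested, with a median difference of 0.01 (-0.10 to 0.29) and 0 past the threshold of 1. Mmp9, the gelatinase of neutrophil granules, was at 3048.59 and 3460.26 FPKM in AAV-Ctrl and 3143.54 FPKM in AAV-IL-27. Adam8 was at 302.15, 293.74 and 346.14 FPKM and Adam17, a sheddase of many surface proteins, at 16.14, 14.64 and 19.01 FPKM, with the AAV-IL-27 value (given last) the highest for both. Of 10 linker and hyaluronan genes 6 were tested, with a median of -0.11 (-0.74 to 0.06) and 0 past the threshold. Msn, the gene of moesin, was at 418.60, 378.13 and 415.68 FPKM and Ezr, the gene of ezrin, at 102.13, 108.94 and 95.07 FPKM. Hmmr, a hyaluronan receptor that is also a gene of the mitotic spindle, was at 2.79, 2.98 and 1.33 FPKM, and Lyve1, a hyaluronan receptor of lymphatic endothelium and some macrophages, at 5.11, 5.31 and 3.19 FPKM.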
